A study of Mus musculus with 24 samples.

Results

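The genes described are 42 mouse genes of the kinetochore and the spindle checkpoint, chosen by name and matched by symbol in 4 comparison tables that set Mof-depleted against control cells. All 42 were found among the 43626 genes listed in each fibroblast table. In the podocyte tables, which hold no gene at an adjusted p of 0.05 or more, 37 were listed with Adriamycin and 4 with vehicle. RNA came from 8 groups of 3 samples, 24 in all. The fibroblast groups were mouse embryonic fibroblasts (MEFs) at passage 2: Mof knockout with Adriamycin, wild type with Adriamycin, Mof knockout with vehicle (DMSO) and wild type with vehicle. The podocyte groups were MPC5 cells, a mouse glomerular podocyte line, differentiated at passage 20: Mof knockdown with Adriamycin, scramble with Adriamycin, Mof knockdown with vehicle and scramble with vehicle. Adriamycin (doxorubicin), an anthracycline that poisons topoisomerase II, was given over 24 h, at 0.1 µg/ml in MEFs and at 0.25 µg/ml in podocytes. How Mof was deleted in the MEFs, by which construct it was knocked down, and whether the samples of a group were separate cultures was not given in the sources used here, and p-values thus reflect the spread among these samples, which could be technical.

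The kinetochore is the protein structure, built on centromeric chromatin, through which a chromosome is held by spindle microtubules in mitosis. Its inner part, the constitutive centromere network, sits on nucleosomes that carry the histone variant CENP-A. Its outer part, the KMN network (the KNL1, MIS12 and NDC80 complexes), binds the microtubule and is also the platform of the spindle checkpoint, which holds back anaphase until chromosomes are attached. Many of these genes are transcribed mostly late in the cell cycle, so their RNA is usually low in cells that do not divide. Kat8 encodes MOF, an acetyltransferase that acts on lysine 16 of histone H4.

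All values below come from the authors' deposited tables. A log2 fold change is Mof-depleted over control and is followed by its standard error (SE). A gene was called changed when the authors' DESeq2 test gave it an adjusted p below 0.05. The tables give 1 mean normalized count per gene over the 6 samples of a comparison and nothing for single samples. Library depths are therefore unknown, and no overlap between samples can be shown. A level for each group was derived from that mean and the fold change, and is called the implied count. Kat8 itself stood at 30.5% of wild type in knockout MEFs with Adriamycin, 25.7% of wild type in knockout MEFs with vehicle, 42.3% of scramble in knockdown podocytes with Adriamycin and 35.6% of scramble in knockdown podocytes with vehicle in the authors' deposited tables. The sign of Kat8 also set the direction of the fold changes, so it does not test the labels. All 7 fibroblast markers looked at (Col1a1, Col1a2, Col3a1, Pdgfra, Pdgfrb, Thy1 and Vim) were present in both MEF tables, with mean counts of at least 884. The podocyte genes Nphs1 and Wt1 are listed in neither podocyte table, which shows only that they were not called there. Podxl and Synpo are listed in both.

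To ask what loss of Mof did to this machinery in dividing fibroblasts, knockout MEFs were compared with wild-type MEFs under vehicle. Nearly the whole set was lower: 38 of 42 members fell, 3 rose and 1 was not called in the authors' deposited table. Of the 15605 genes tested there, 37.5% were called, 19.6% lower and 17.8% higher. The median log2 fold change of the members was -1.25, against 0.01 over all genes tested. A called decrease of at least 1 on the log2 scale was seen in 28 of the 42, against 2.96% of all genes tested. The 3 that rose were Zwint, Cenpb and Cenpt, and the 1 not called was Cenpc1.

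**Figure D1:**
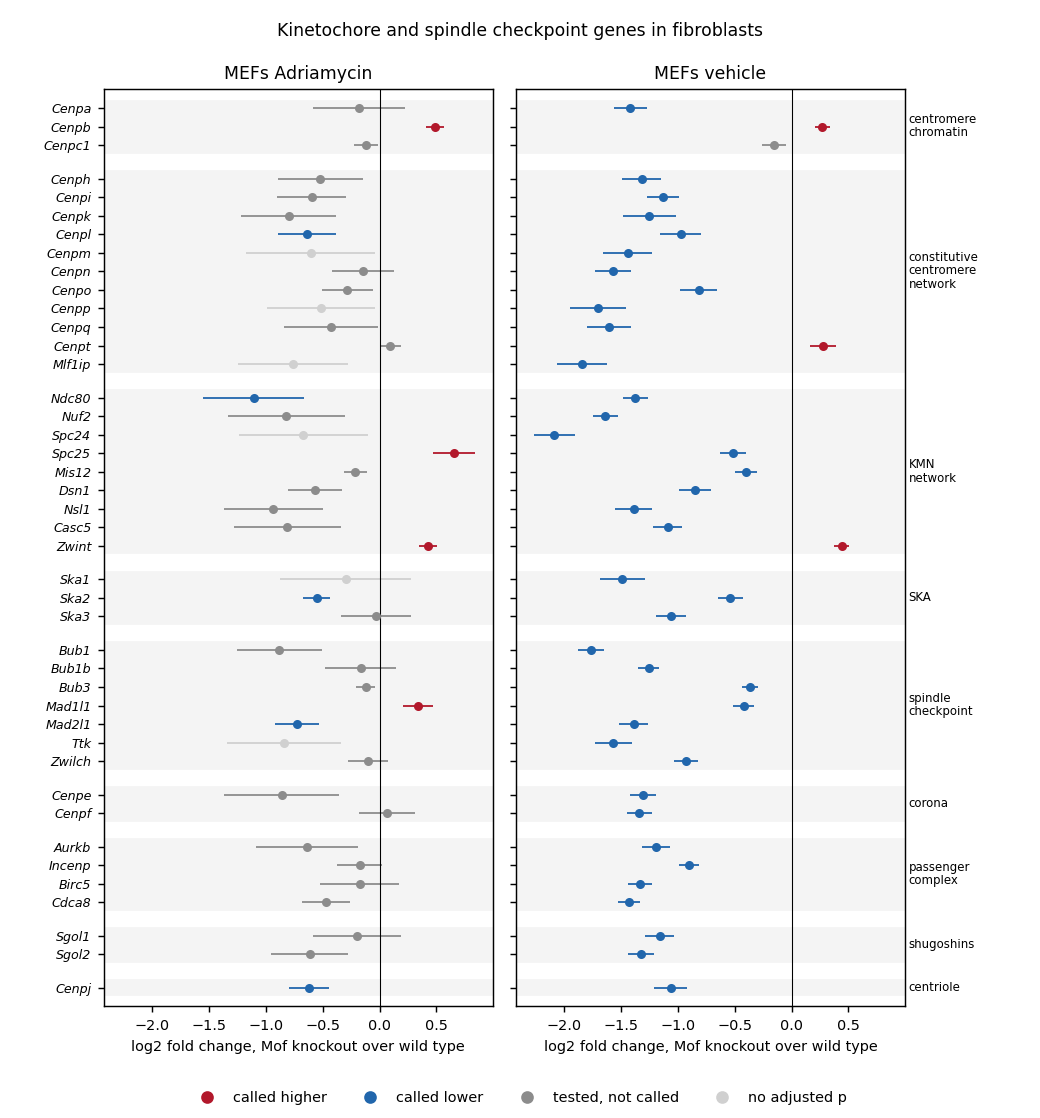
Log2 fold change (Mof knockout over wild type, horizontal axis) of each of the 42 genes, grouped by role, in MEFs given Adriamycin (left) and vehicle (right). Points are the authors' deposited values and bars their standard errors. Under vehicle 38 genes lie to the left of 0 in blue, while with Adriamycin most bars are wider and 9 genes are coloured as called.

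Among the spindle checkpoint genes all 7 fell under vehicle. Bub1, the kinase that recruits checkpoint proteins to the kinetochore (ENSMUSG00000027379, GRCm38 chromosome 2, 127801122 to 127831865, protein coding), had an implied 429 normalized counts in knockout MEFs, against 1454 in wild-type MEFs. Its log2 fold change was -1.76 ± 0.11 (adjusted p 2.15e-51) in the authors' deposited table, which ranked it 6 of all genes by the size of the Wald statistic. Ttk, the kinase MPS1 that starts checkpoint signalling, was at -1.57 ± 0.16 in the authors' deposited table. Mad2l1, the protein MAD2 that inhibits the anaphase activator CDC20, had an implied 502 counts in knockout MEFs and 1315 in wild-type MEFs and a log2 fold change of -1.39 ± 0.13 in the authors' deposited table. Bub1b, which encodes BUBR1 of the mitotic checkpoint complex, was at -1.26 ± 0.09, and Zwilch, a subunit of the RZZ complex that brings dynein to the kinetochore, at -0.93 ± 0.10 in the authors' deposited table. The smallest decreases were those of Mad1l1, the MAD1 scaffold of MAD2 (-0.42 ± 0.09), and Bub3, the adaptor that BUB1 and BUBR1 share (-0.37 ± 0.07), in the authors' deposited table. The decreases thus spread widely among checkpoint genes. Differences between genes were not tested.

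The KMN network spread widest under vehicle, from -2.08 to 0.44 on the log2 scale, with 8 of its 9 genes lower and 1 higher. The NDC80 complex is a rod of 4 subunits whose outer end, made of NDC80 and NUF2, grips the microtubule and whose inner end, made of SPC24 and SPC25, docks on the kinetochore. Nuf2 (ENSMUSG00000026683, chromosome 1, 169497934 to 169531464, protein coding) had an implied 389 counts in knockout MEFs and 1208 in wild-type MEFs, a log2 fold change of -1.64 ± 0.11 (adjusted p 2.02e-48) in the authors' deposited table. Ndc80 was at -1.37 ± 0.11 and Spc24, the lowest of all 42, at -2.08 ± 0.18 with an implied 75.2 counts in knockout MEFs and 319 in wild-type MEFs in the authors' deposited table. Spc25, the partner of SPC24, was only at -0.52 ± 0.11, with an implied 533 counts in knockout MEFs and 764 in wild-type MEFs, in the authors' deposited table. Both partner subunits fell, and their 95% intervals did not overlap.

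In the MIS12 complex, which links the inner to the outer kinetochore, Nsl1 was at -1.38 ± 0.16, Dsn1 at -0.85 ± 0.14 and Mis12 at -0.40 ± 0.10 in the authors' deposited table. Casc5, which encodes the checkpoint scaffold KNL1, was at -1.09 ± 0.12, while Zwint, which encodes its binding partner, rose by 0.44 ± 0.07 with an implied 4777 counts in knockout MEFs and 3520 in wild-type MEFs in the authors' deposited table. Zwint and Cenpb had the highest mean counts per kilobase of exon of all 42 in this table, 936 and 957, against 21.2 for the lowest, Cenpk. The genes that rose thus included the 2 most abundant of the set.

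Of the 3 genes of centromeric chromatin, Cenpa, the histone H3 variant that marks the centromere, was at -1.42 ± 0.15 with an implied 529 counts in knockout MEFs and 1413 in wild-type MEFs in the authors' deposited table. Cenpb, which binds a sequence motif of centromeric satellite DNA, rose by 0.27 ± 0.07 in the authors' deposited table. Cenpc1, the CENP-C protein that bridges CENP-A nucleosomes to the outer kinetochore, was at -0.15 ± 0.11 in the authors' deposited table (adjusted p 0.262). In the constitutive centromere network 10 of 11 genes fell under vehicle and Cenpt rose, with a median of -1.32. The lowest were Mlf1ip, which encodes CENP-U (-1.84 ± 0.22), Cenpp (-1.70 ± 0.25) and Cenpq (-1.60 ± 0.19), all of the CENP-O/P/Q/R/U group, whereas Cenpo of the same group was at -0.82 ± 0.16, in the authors' deposited table. Cenpn, whose protein recognises the CENP-A nucleosome, was at -1.57 ± 0.16, and its partner Cenpl at -0.97 ± 0.18, in the authors' deposited table. Cenph (-1.32 ± 0.17), Cenpk (-1.25 ± 0.23), Cenpi (-1.13 ± 0.14) and Cenpm (-1.44 ± 0.22), which encode the CENP-H/I/K/M group, lay close together in the authors' deposited table. Cenpt, whose protein binds the NDC80 complex directly, was at 0.28 ± 0.11 (adjusted p 0.0382) in the authors' deposited table. The Cenpt call was lost without the authors' filter on low counts.

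The SKA complex, which keeps kinetochores on depolymerising microtubule ends, fell throughout: Ska1 was at -1.49 ± 0.20, Ska3 at -1.06 ± 0.13 and Ska2 at -0.54 ± 0.11 in the authors' deposited table. The 4 genes of the chromosomal passenger complex, which corrects wrong attachments, fell too. Cdca8, which encodes borealin, was at -1.43 ± 0.10, Birc5, which encodes survivin, at -1.33 ± 0.10, and the kinase gene Aurkb at -1.19 ± 0.12 in the authors' deposited table. Incenp, the scaffold that activates AURKB, was at -0.90 ± 0.09 in the authors' deposited table. The corona genes Cenpe, a kinesin that moves chromosomes to the spindle equator (-1.30 ± 0.11), and Cenpf (-1.34 ± 0.11) had close values in the authors' deposited table. The shugoshin genes Sgol1 (-1.16 ± 0.13) and Sgol2 (-1.32 ± 0.12), whose proteins protect centromeric cohesin, fell by similar amounts in the authors' deposited table. Cenpj encodes a protein of centriole growth in spite of its name, and it was at -1.06 ± 0.14 in the authors' deposited table.

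The decrease was shared by genes of the same processes that are not members. Of factors that load or license the centromere, 8 of 10 fell and none rose, among them Hjurp, the CENP-A chaperone (-1.09 ± 0.09), and Mis18a (-1.29 ± 0.15), in the authors' deposited table. Of other checkpoint and attachment factors, 12 of 14 fell and none rose, among them Plk1 (-1.49 ± 0.11) and Kif2c (-1.47 ± 0.12) in the authors' deposited table. All 8 condensin genes fell, among them Smc2 (-1.26 ± 0.10) and Ncapd2 (-1.10 ± 0.09), in the authors' deposited table. The anaphase-promoting complex and its regulators had 10 of 18 lower and none higher, with Ube2c at -1.22 ± 0.11 and Cdc20 at -1.08 ± 0.10 in the authors' deposited table, and a median of -0.32. Cohesin and its regulators had 9 of 15 lower and none higher, with the separase gene Espl1 at -1.74 ± 0.13 and Rad21 at -0.82 ± 0.10 in the authors' deposited table, and a median of -0.41.

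General proliferation markers moved with the members under vehicle. Of 8, 7 fell and none rose, with a median of -1.09, among them Mki67 (-1.36 ± 0.09) and Ccnb1 (-1.32 ± 0.10), while Pcna was at -0.10 ± 0.09 (adjusted p 0.409) in the authors' deposited table. In bulk RNA, fewer dividing cells and less RNA per dividing cell cannot be told apart. Of 6 macrophage markers 4 rose in the same comparison (Emr1, C1qa, Lyz2 and Cd68). Csf1r (-0.12 ± 0.25) and Ptprc (0.36 ± 0.30) were not called, in the authors' deposited table. The summed mean count of all 6 markers was 2992, and none of the 6 was at 0. Their part in the decrease was not tested.

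Letters shared by the promoters of these genes were then looked at, since the members moved together. The RefSeq table (GRCm38.p6) gave a window of 250 bases before and 50 after the gene start for 36 of the 42 members, and for 20595 genes in all. The element called CHR (cell cycle genes homology region), searched as TTTGAA or TTCGAA on both strands, is known as the site through which MuvB complexes hold late cell cycle genes silent in resting cells. It was present within 100 bases before to 50 after the start in 14 of 36 member promoters (38.9%), against 7.79% of all promoters. Over the whole window of 300 bases the excess was smaller, with 15 of 36 member promoters (41.7%) and 18.4% of all promoters. Of the 24 matched members at a log2 fold change of -1 or below under vehicle 12 held it in the narrower window, and of the other 12 members 2 did. Over the whole window these counts were 12 of 24 and 3 of 12. CCAAT, searched on both strands over the whole window, was present in 63.9% of the member promoters and 38.2% of all promoters. The E2F words TTTCCCGC, TTTGGCGC, TTTCGCGC and TTTGCCGC, on both strands, were found in 4 of 36 members (11.1%) and in 2.64% of all promoters. Split by the same fold change over the whole window, CCAAT was present in 16 of 24 and 7 of 12 members, and an E2F word in 1 of 24 and 3 of 12. In the narrower window CCAAT was present in 13 of 24 and 7 of 12, and an E2F word in 1 of 24 and 1 of 12. A match is a description of the letters and not evidence of binding.

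The CHR words of 13 of the 14 members follow with their flanks, because most lay within 50 bases of the gene start. They are read 5′ to 3′ on the strand of the gene, with the matched word in capitals. The remaining member, Cdca8, holds TTTGAA at position 14 and is not printed. Positions are counted from the RefSeq start, which lies away from the GENCODE 5′ end in some genes, Cdca8 among them.
Bub1 (chr2:127831830-127831855, minus strand, position 15): gcgcggggaaTTCGAAtcgccggcgg
Cenpf (chr1:189688069-189688094, minus strand, position 3): cggcgggcagTTTGAAtcgctcgtgc
Cenpa (chr5:30666892-30666917, plus strand, position 17): cgggtgatttTTTGAActgctggcga
Ttk (chr9:83834686-83834711, plus strand, position 8): gcggggaaatTTCAAAcgtgtttccg
Cenpn (chr8:116921721-116921746, plus strand, position -9): cattggcggcTTCAAAagcacctcgg
Ska3 (chr14:57826162-57826187, minus strand, position -14): ctgcgcaggaTTCAAAtgtgtagcgc
Spc25 (chr2:69206174-69206199, minus strand, position 25): cggtggagagTTTGAAattgaaagac
Sgol1 (chr17:53689273-53689298, minus strand, position 28): aacgcagaatTTCGAAtgtggcggcg
Ndc80 (chr17:71526813-71526838, minus strand, position 30): aactttaaaaTTCAAAccgccttggg
Casc5 (chr2:119047140-119047165, plus strand, position 32): ggcggttagaTTTGAAtacttcaggg
Bub1b (chr2:118598241-118598260, plus strand, position 41): agacgttaaaTTTGAAactt
Bub3 (chr7:131560317-131560342, plus strand, position -43): gccgttggcgTTCAAAatcagccaat
Cenpm (chr15:82244404-82244429, minus strand, position -83): ggcgttccagTTCGAAcgtggctttc
Spc25 and Bub3 hold the word although they fell by small amounts, and Nuf2, which fell more, does not.

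Longer windows are shown for the 2 called members with the smallest adjusted p under vehicle, Bub1 and Nuf2, and the 2 members with the largest p, Cenpc1 and Cenpt, from 250 bases before to 30 after the start, with CHR, CCAAT and E2F words on either strand in capitals (RefSeq, GRCm38.p6).
Bub1 (chr2:127831830-127832109, minus strand): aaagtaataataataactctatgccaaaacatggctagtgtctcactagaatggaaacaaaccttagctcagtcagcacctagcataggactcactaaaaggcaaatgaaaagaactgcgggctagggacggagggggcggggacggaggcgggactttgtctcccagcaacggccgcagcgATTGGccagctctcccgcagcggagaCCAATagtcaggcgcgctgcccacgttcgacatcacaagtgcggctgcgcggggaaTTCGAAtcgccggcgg
Nuf2 (chr1:169531435-169531714, minus strand): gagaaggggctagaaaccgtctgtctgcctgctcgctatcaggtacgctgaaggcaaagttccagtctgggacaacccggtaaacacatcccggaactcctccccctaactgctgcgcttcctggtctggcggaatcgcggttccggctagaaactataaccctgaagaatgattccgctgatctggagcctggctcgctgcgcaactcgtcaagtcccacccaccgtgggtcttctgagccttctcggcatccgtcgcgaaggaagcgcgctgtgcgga
Cenpc1 (chr5:86065554-86065833, minus strand): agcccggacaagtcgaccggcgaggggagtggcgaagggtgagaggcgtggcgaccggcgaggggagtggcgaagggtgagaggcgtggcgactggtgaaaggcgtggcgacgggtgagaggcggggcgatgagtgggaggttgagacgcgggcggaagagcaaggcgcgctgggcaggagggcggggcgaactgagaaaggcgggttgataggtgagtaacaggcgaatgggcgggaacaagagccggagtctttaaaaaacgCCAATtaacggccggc
Cenpt (chr8:105851979-105852258, minus strand): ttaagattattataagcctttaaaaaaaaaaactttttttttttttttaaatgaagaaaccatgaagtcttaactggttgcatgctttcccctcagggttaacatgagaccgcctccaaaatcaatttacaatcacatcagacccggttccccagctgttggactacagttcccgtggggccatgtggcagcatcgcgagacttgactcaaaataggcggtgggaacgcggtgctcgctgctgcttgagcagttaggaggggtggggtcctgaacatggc
The Bub1 window holds CCAAT words at positions -68 (as ATTGG) and -42 and a CHR word at position 15. None of the words lies in the Nuf2 or Cenpt window, and the Cenpc1 window holds 1 CCAAT at position 15. The Cenpt window lies within the GENCODE gene, whose 5′ end is at 105853278, so the bases before that end were not searched.

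With Adriamycin the levels of these genes in MEFs were far lower, in a comparison of table means that were normalized separately and so were not tested. The mean count in the Adriamycin table was below that in the vehicle table for 39 of 42 members, and the median member stood at 12.3% of its vehicle level. Over the 10500 genes whose mean count reached 100 under vehicle, the median ratio was 1.06. A level below 20% of that under vehicle was found for 28 of 42 members, against 192 of the 10500 genes (1.83%), and a level below 10% for 15 members, against 112 of the genes (1.07%). Both Mof knockout and wild-type samples enter each mean.

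**Figure D2:**
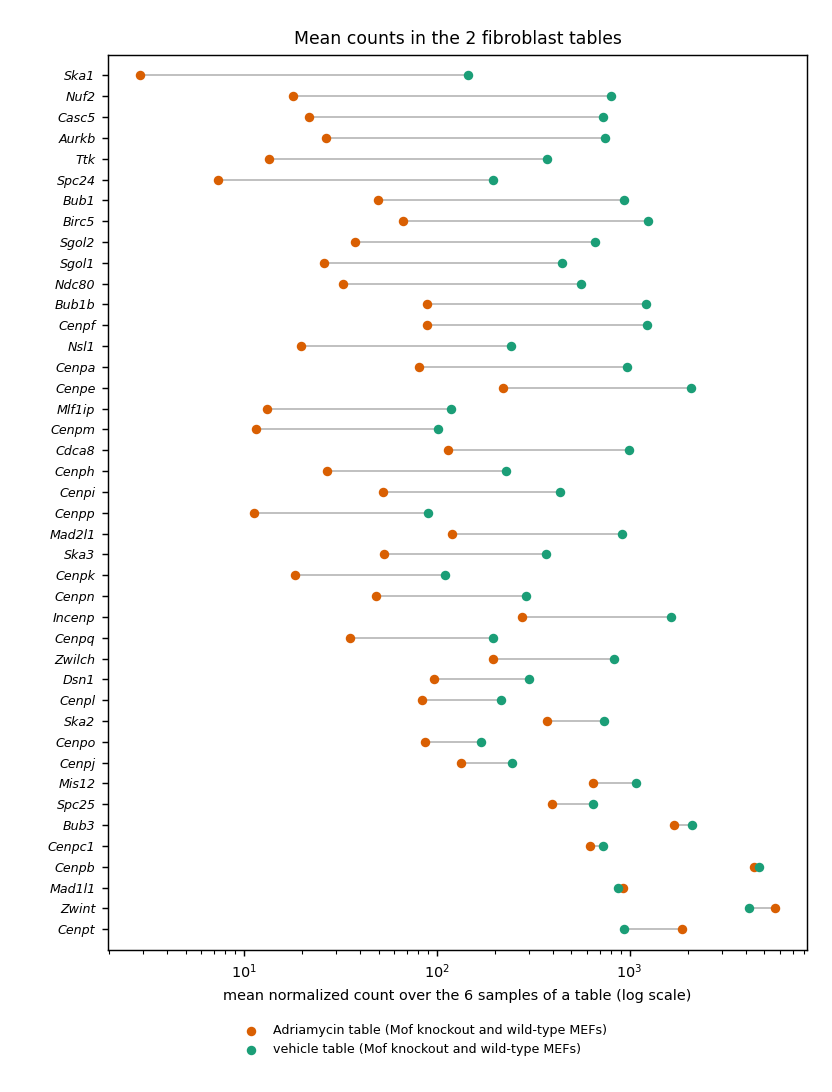
Mean normalized count of each gene over the 6 samples (Mof knockout and wild-type MEFs) of the Adriamycin table (orange) and of the vehicle table (green), on a log axis, ordered by their ratio. The authors normalized the tables separately. 39 of 42 genes have the lower mean in the Adriamycin table, with Ska1, Nuf2 and Casc5 farthest apart and Cenpt, Zwint and Mad1l1 in the other order.

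The largest gaps were those of Ska1, with a mean of 2.90 counts in the Adriamycin table and 145 in the vehicle table, and Nuf2, whose mean in the Adriamycin table was 2.26% of its 799 counts in the vehicle table. Casc5 had a mean of 21.8 counts with Adriamycin and 726 with vehicle, and Aurkb 26.8 with Adriamycin and 750 with vehicle. These genes thus had few reads left in the Adriamycin table. Genes with small gaps were Bub3 (1705 with Adriamycin and 2103 with vehicle), Cenpc1 (624 and 732) and Cenpb (4434 and 4677). Mad1l1 (923 with Adriamycin and 876 with vehicle), Zwint (5696 and 4149) and Cenpt (1880 and 939) had the higher mean with Adriamycin. Of the general proliferation markers, the summed mean count of the 8 genes was 1772 with Adriamycin and 24164 with vehicle.

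Knockout and wild-type MEFs were then compared under Adriamycin. Few members were called: 4 rose, 5 fell, 27 were not called and 6 had no adjusted p because of the authors' filter on low counts, in a table in which 32.7% of 14139 tested genes were called, 16.6% higher and 16.1% lower. The share called, 9 of 42, was thus not above that of all genes. At a log2 fold change of -1 or below only Ndc80 was called, against 1.5% of all genes tested. The mean count of 27 members was below 100 here, and the median SE of the members was 0.31, against 0.12 under vehicle. The vehicle log2 fold change of each tested member was also divided by its SE with Adriamycin. For 34 of the 36 the ratio exceeded 2.40, the smallest absolute Wald statistic called in the Adriamycin table. The exceptions were Cenpc1 and Casc5. The vehicle fold changes came mostly from higher counts. The ratio therefore cannot show whether changes of that size would have been called at the counts with Adriamycin, which was not tested. It also leaves out the members without an adjusted p. The 6 without an adjusted p were Cenpm, Cenpp, Mlf1ip, Spc24, Ska1 and Ttk, with mean counts from 2.90 to 13.5.

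The 4 that rose with Adriamycin were Cenpb (0.49 ± 0.08, adjusted p 1.90e-08), Zwint (0.43 ± 0.08), Spc25 (0.65 ± 0.18) and Mad1l1 (0.34 ± 0.13, adjusted p 0.0357) in the authors' deposited table. Spc25 had an implied 484 counts in knockout MEFs, against 307 in wild-type MEFs. The 5 that fell were Ska2 (-0.55 ± 0.12), Mad2l1 (-0.72 ± 0.19), Cenpj (-0.62 ± 0.18), Cenpl (-0.63 ± 0.25) and Ndc80 (-1.11 ± 0.45) in the authors' deposited table. Mad2l1 had an implied 90.2 counts in knockout MEFs and 149 in wild-type MEFs. Bub1, which had the smallest adjusted p of the members under vehicle, was at -0.88 ± 0.38 (adjusted p 0.0570), with an implied 35.1 counts in knockout MEFs and 64.5 in wild-type MEFs, in the authors' deposited table. The calls of Cenpl, Ndc80 and Mad1l1 were lost without the authors' filter on low counts, and Cenpl and Ndc80 had mean counts of only 83.6 and 32.9.

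To ask whether the effect of Mof loss depended on the drug, the vehicle log2 fold change was subtracted from the Adriamycin one and the difference tested for each gene (z test on the deposited standard errors, Benjamini-Hochberg adjustment over 13973 genes). Of 36 members tested, 10 differed, and all 10 had the higher value with Adriamycin. Over all genes 7.09% differed, 3.49% with the higher and 3.61% with the lower value with Adriamycin. The median difference was 0.61 over the members and -0.02 over all genes.

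**Figure D3:**
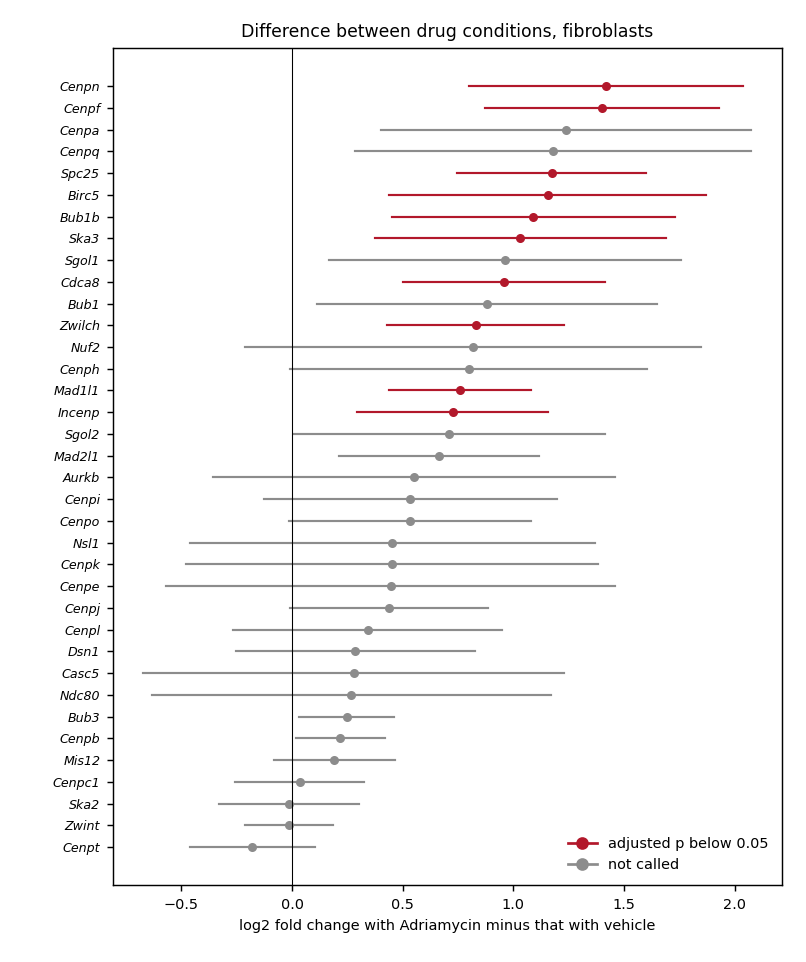
Log2 fold change (Mof knockout over wild type) with Adriamycin minus that with vehicle for the 36 genes tested in both MEF tables, with 95% intervals. Red marks an adjusted p below 0.05. The 10 red genes all lie right of 0, and only Cenpt, Zwint and Ska2 have values left of 0.

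The largest difference among the called members was that of Cenpn, at -0.15 ± 0.27 with Adriamycin and -1.57 ± 0.16 with vehicle, a difference of 1.42 ± 0.32 (adjusted p 0.000430) from the authors' deposited tables. Cenpf differed by 1.402 ± 0.27 (adjusted p 2.18e-05), at 0.07 ± 0.25 with Adriamycin and -1.34 ± 0.11 with vehicle in the authors' deposited tables. Birc5 (1.16 ± 0.36), Bub1b (1.09 ± 0.33), Ska3 (1.03 ± 0.34), Cdca8 (0.96 ± 0.23), Zwilch (0.83 ± 0.20) and Incenp (0.73 ± 0.22) fell under vehicle and were not called with Adriamycin. Spc25 and Mad1l1 were called in both tables with opposite signs. Spc25 differed by 1.17 ± 0.22 (adjusted p 9.32e-06), at 0.65 ± 0.18 with Adriamycin and -0.52 ± 0.11 with vehicle, in the authors' deposited tables. Mad1l1 differed by 0.76 ± 0.16 (adjusted p 0.000224), at 0.34 ± 0.13 with Adriamycin and -0.42 ± 0.09 with vehicle, in the authors' deposited tables. Zwint did not differ beyond its error, with an interval of -0.21 to 0.18, nor did Ska2, with one of -0.33 to 0.30. Where z was divided by its robust spread over all genes, 2 of the 10 were left, Spc25 and Cenpf. The version of DESeq2 that the authors name shrinks fold changes of genes with few reads towards 0 by default, and the members had fewer reads with Adriamycin; the part of this in the differences was not tested.

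In podocytes, Mof knockdown was compared with scramble under each drug condition. With Adriamycin 37 of 42 members were called, 30 higher and 7 lower, in a table in which 55.7% of 17184 tested genes were called, 27.8% higher and 27.9% lower. The median log2 fold change of the 37 was 0.45, a median over called genes only. An increase of at least 1 on the log2 scale was called for 6 members, against 6.86% of all genes tested. The 5 members not listed were Cenpb, Cenpt, Ndc80, Aurkb and Sgol2. They were not called or not tested.

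**Figure D4:**
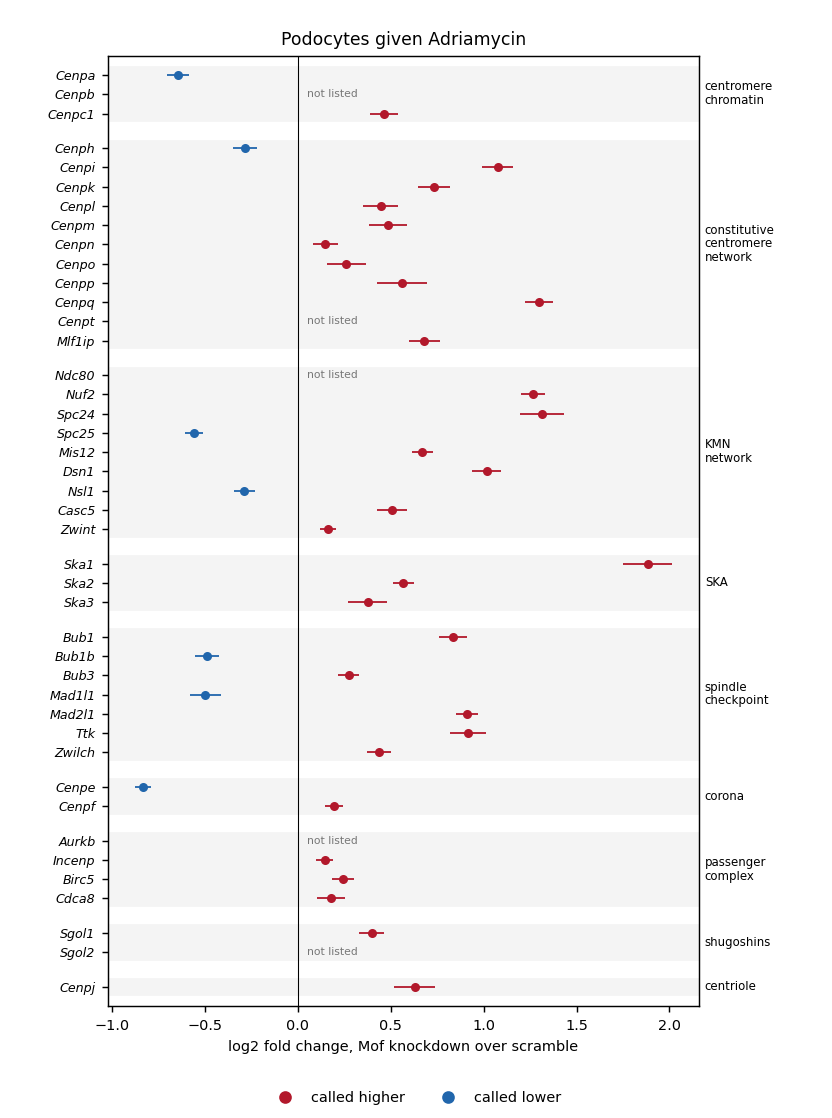
Log2 fold change (Mof knockdown over scramble, horizontal axis) of each gene, grouped by role, in podocytes given Adriamycin. Points are the authors' deposited values, bars their standard errors, and genes without a row in the table are marked as not listed. 30 genes are higher, with Ska1 at 1.88 the highest, and 7 are lower, with Cenpe at -0.83 the lowest.

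The NDC80 complex split in podocytes with Adriamycin. Nuf2 rose by 1.27 ± 0.07 (adjusted p 1.23e-81), with an implied 1913 counts in knockdown podocytes and 795 in scramble podocytes, in the authors' deposited table. Spc24 rose by 1.31 ± 0.12, with an implied 467 counts in knockdown podocytes and 188 in scramble podocytes, in the authors' deposited table. Spc25 fell by 0.56 ± 0.05 on the log2 scale (adjusted p 1.84e-27), with an implied 2216 counts in knockdown podocytes and 3264 in scramble podocytes, and Ndc80 is not listed in the authors' deposited table. The partners Spc24 and Spc25 thus moved in opposite directions. In the MIS12 complex Dsn1 (1.02 ± 0.08) and Mis12 (0.67 ± 0.06) rose while Nsl1 fell to 81.9% of scramble (-0.29 ± 0.06) in the authors' deposited table. Casc5 (0.51 ± 0.08) and Zwint (0.16 ± 0.04) rose in the authors' deposited table.

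The checkpoint genes split as well, with 5 higher and 2 lower. Ttk (0.92 ± 0.10), Mad2l1 (0.91 ± 0.06), Bub1 (0.84 ± 0.08), Zwilch (0.44 ± 0.07) and Bub3 (0.27 ± 0.06) rose in the authors' deposited table. Mad2l1 had an implied 2529 counts in knockdown podocytes and 1347 in scramble podocytes. Mad1l1 (-0.50 ± 0.08) and Bub1b (-0.49 ± 0.07) fell in the authors' deposited table, so MAD1 and MAD2, which bind each other, went opposite ways at the RNA level. Of the corona genes, Cenpe fell (-0.83 ± 0.04, adjusted p 3.59e-79), with an implied 5107 counts in knockdown podocytes and 9099 in scramble podocytes, and Cenpf rose by 0.19 ± 0.05 in the authors' deposited table. Cenpe had the highest mean count of the members listed, 7103.

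Of centromeric chromatin, Cenpa fell (-0.65 ± 0.06), with an implied 1464 counts in knockdown podocytes and 2290 in scramble podocytes, while Cenpc1 rose by 0.46 ± 0.08 in the authors' deposited table. In the constitutive centromere network 9 of 11 genes rose, 1 fell and 1 was not listed. The highest were Cenpq (1.30 ± 0.08), Cenpi (1.08 ± 0.08), Cenpk (0.73 ± 0.09) and Mlf1ip (0.68 ± 0.08), and the 1 that fell was Cenph (-0.28 ± 0.06), in the authors' deposited table. Cenpp (0.56 ± 0.13), Cenpm (0.49 ± 0.10), Cenpl (0.45 ± 0.09), Cenpo (0.26 ± 0.10) and Cenpn (0.15 ± 0.07) rose by less in the authors' deposited table. All 3 SKA genes rose: Ska1 by 1.88 ± 0.13, with an implied 442 counts in knockdown podocytes and 120 in scramble podocytes, Ska2 by 0.57 ± 0.06 and Ska3 by 0.38 ± 0.11 in the authors' deposited table. The listed passenger genes rose only a little, Birc5 by 0.24 ± 0.06, Cdca8 by 0.18 ± 0.07 and Incenp by 0.14 ± 0.05 in the authors' deposited table. Sgol1 (0.40 ± 0.07) and Cenpj (0.63 ± 0.11) also rose in the authors' deposited table.

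With vehicle 4 of 42 members were called in podocytes, all higher, in a table in which 14.3% of 13876 tested genes were called, 8.7% higher and 5.64% lower. They were Spc24 (0.49 ± 0.13, adjusted p 0.00349), Ska2 (0.36 ± 0.12), Cenpb (0.34 ± 0.12) and Bub1b (0.31 ± 0.11, adjusted p 0.0464) in the authors' deposited table. The share of members called lay below that of all genes. The genes listed in both podocyte tables were set side by side without a test, since both lists were chosen by their p. Spc24 was at 1.31 ± 0.12 with Adriamycin and 0.49 ± 0.13 with vehicle, and Ska2 at 0.57 ± 0.06 with Adriamycin and 0.36 ± 0.12 with vehicle, in the authors' deposited tables. Bub1b had opposite signs, -0.49 ± 0.07 with Adriamycin and 0.31 ± 0.11 with vehicle, in the authors' deposited tables. Their mean counts in podocytes were of like size under both conditions, 327 with Adriamycin and 435 with vehicle for Spc24, 1699 and 1966 for Ska2, and 1680 and 1898 for Bub1b, in tables normalized separately.

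Proliferation markers in podocytes moved with the members. With Adriamycin Mki67 (1.03 ± 0.06), Top2a (1.17 ± 0.05), Pcna (0.97 ± 0.04), Mcm2 (0.88 ± 0.04), Mcm5 (0.52 ± 0.05) and Cdk1 (0.53 ± 0.05) rose and Ccnb1 fell (-0.59 ± 0.05) in the authors' deposited table, and Ccna2 is not listed. With vehicle only Mki67 is listed, at 0.45 ± 0.16 in the authors' deposited table. Their part in the change of the members was not tested.

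MEFs with vehicle and podocytes with Adriamycin were then set beside each other. Most members had opposite signs, but so did most other genes. The comparison was not tested, since a knockout and a knockdown, different drug conditions and separately normalized tables are involved. Of the 41 members called in MEFs with vehicle and the 37 called in podocytes with Adriamycin, 36 were called in both. Of these, 28 were lower in MEFs and higher in podocytes, which is 68.3% of the members called in MEFs and 75.7% of those called in podocytes. Opposite signs were thus found in 77.8% of the members called in both tables, against 68.9% of the 4003 genes called in both. Among genes lower in MEFs, 28 of the 35 members and 70.4% of all genes were higher in podocytes. The share of members lay near that of all genes and is not a result about the set. A further 7 of the 36 were lower in both, as were 16.1% of the 4003 genes. They were Cenpa, Cenph, Spc25, Nsl1, Bub1b, Mad1l1 and Cenpe. Zwint was higher in both. Across the 37 members with a value in both tables, Spearman's rho was -0.34, a description over genes that share libraries and are not independent. With Adriamycin in both cell types, 4 members were lower in MEFs and higher in podocytes (Cenpl, Ska2, Mad2l1 and Cenpj). Spc25 and Mad1l1 were higher in MEFs and lower in podocytes, and Zwint was higher in both. The shares over all genes were not worked out for this pair of comparisons, so no result about the set is drawn.

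**Figure D5:**
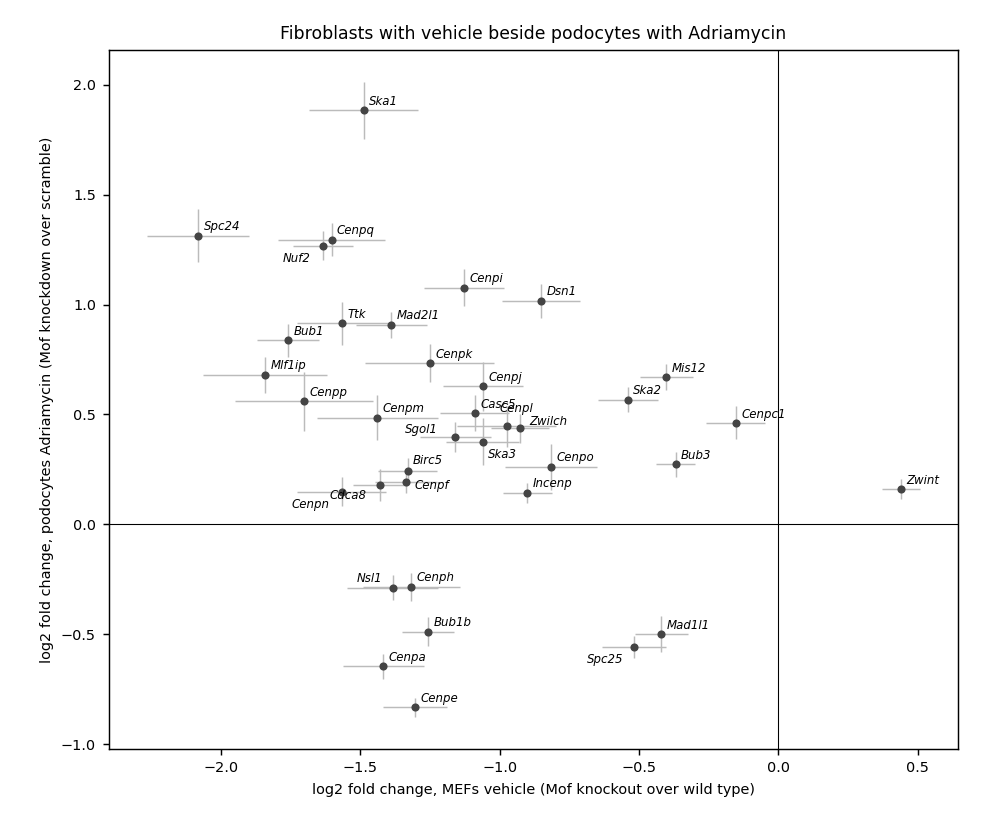
Log2 fold change in MEFs with vehicle (Mof knockout over wild type, horizontal axis) against that in podocytes with Adriamycin (Mof knockdown over scramble, vertical axis) for the 37 genes with a value in both of the authors' deposited tables. Bars are standard errors. 28 called genes lie in the upper left, 7 in the lower left and Zwint alone in the upper right; Cenpc1, also upper left, was not called in MEFs.

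Neighbouring genes may have affected some counts, in a direction that was not worked out. Exons of 14 members share bases with another annotated gene (GENCODE M21), 13 of them with a gene on the opposite strand, among them Cenpt with Tsnaxip1, Cenpp with Aspn and Cenpo with Adcy3, and a strand setting for the counting was not given in the sources used here. Sgol2 (Sgo2a in GENCODE M21) has a close relative, Sgo2b, with which it may share reads.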

How the data were processed

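GRCm38, alignment by TopHat2 (2.0.13), counting by featureCounts (1.4.5-p1) and testing by DESeq2 (1.4.1) are named per the submitters' processing notes, and per the labels' protocols the libraries were poly(A) enriched. The 4 deposited tables hold the authors' own comparisons of 3 against 3 samples. Per the file headers they give a signal (the authors' mean of size-factor-normalized counts over the samples of a table), the authors' log2 fold change, a score (its standard error, and the Wald statistic) and the authors' p-value with its adjusted p-value. Dividing fold change by standard error gave the statistic back, with a largest deviation of 1.42e-13. The number of genes tested in podocytes was worked out from adjusted p over p. The values were used as deposited. Whether fold changes were shrunk is not stated, but the standard errors show it. In MEFs with Adriamycin the largest SE was 0.60, and Nphs1 had one of 0.38 at a mean count of 0.505. Errors this small at so few reads are those of shrunken fold changes. With shrunken fold changes, the implied counts of genes with few reads lie nearer each other.

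Implied group counts were computed here (Python 3.11.15, scipy 1.17.1) from the mean count and the fold change, with equal group sizes. Ratios of table means and mean counts per kilobase of exon (GENCODE M21) were also computed. Promoter words were searched in 1 RefSeq window per gene, the one nearest the GENCODE gene start. MEF fold changes with Adriamycin and with vehicle were compared by a z test that takes the deposited standard errors as given. It was run on simulated data, which cannot show whether those errors suit the real z values. Dividing z by its robust spread left 168 of 991 genes and 2 of 10 members. Each companion list is represented by the 2 genes that fell with the smallest adjusted p in MEFs with vehicle (none rose); all members are named. Marker lists for fibroblasts, podocytes, macrophages, endothelium and epithelium were looked up. Members, lists and tests were chosen with earlier results of these data known.

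Endothelial markers had 0 of 3 called in either MEF table, and epithelial markers 1 of 4 with vehicle (higher) and 0 of 4 with Adriamycin. Of podocyte markers, 1 rose and 2 fell in MEFs with Adriamycin and 2 rose in MEFs with vehicle, of fibroblast markers 2 fell with Adriamycin and 1 with vehicle, and of macrophage markers 0 were called with Adriamycin. Among genes listed in the podocyte tables were 1 fibroblast, 5 podocyte, 2 macrophage, 0 endothelial and 2 epithelial markers with Adriamycin, and 0, 2, 1, 0 and 2 with vehicle.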

Additional observations from a re-analysis of the deposited data

Results flagged for a closer look

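Of the members in MEFs, 10 were picked out because the effect of Mof loss differed between the drug conditions by the z test on the authors' deposited fold changes. The difference, Adriamycin minus vehicle on the log2 scale, was 1.42 for Cenpn, 1.402 for Cenpf, 1.17 for Spc25, 1.16 for Birc5, 1.09 for Bub1b and 1.03 for Ska3. It was 0.96 for Cdca8, 0.83 for Zwilch, 0.76 for Mad1l1 and 0.73 for Incenp. The largest adjusted p among them was 0.0351.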

How the results depend on the processing

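No paired analysis was possible because the deposited tables hold no value per sample; for the same reason no replicate could be left out. Of the alternative runs only centring altered the values, by subtracting the median over all tested genes (0.008 with vehicle and -0.019 with Adriamycin in MEFs). The runs therefore could not test the direction of a called member. With an adjusted p below 0.01, 3 members were lower in MEFs with Adriamycin and 1 member changed, a higher one, in podocytes with vehicle. Among members whose mean count reached 100, 3 were lower in MEFs with Adriamycin, and 3 without the filter on low counts. With an absolute log2 fold change of at least 0.5, 0 members were higher in MEFs with vehicle, 1 was higher in MEFs with Adriamycin, 0 changed and 0 were higher in podocytes with vehicle, and 19 changed in podocytes with Adriamycin, 16 higher and 3 lower. Among genes whose mean count reached 100 in both tables, 6 of 15 members differed between drug conditions, against 9.26% of all such genes. These 6 included Mad2l1, which was not among the 10 of the main run. At an adjusted p below 0.01, 6 members differed, against 3.48% of all genes. With z divided by its robust spread 2 members differed, and 168 of all genes in place of 991. After centring on the median of all genes 12 members differed, with Cenpa and Mad2l1 added, against 7.57% of all genes. In the 150-base window 2 members held an E2F word, against 4 in the 300-base window. The other counts stayed within 1.5 times. Centring could not be run in podocytes, whose tables list called genes only.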

Other observations

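Genes of neighbouring processes were set beside the members under Adriamycin. Of all genes tested, 27.8% were called higher and 27.9% lower in podocytes with Adriamycin, and 16.6% higher and 16.1% lower in MEFs with Adriamycin. All 8 condensin genes were higher in knockdown than in scramble podocytes with Adriamycin, with a median log2 fold change of 0.69 in the authors' deposited table, while 4 of the 8 were lower and none was higher in knockout than in wild-type MEFs with Adriamycin. Of 18 genes of the anaphase-promoting complex and its regulators, 11 were higher and 4 lower in podocytes with Adriamycin, and in MEFs with Adriamycin 4 were lower and Anapc11 was higher (0.42 ± 0.12) in the authors' deposited table. Of 15 cohesin genes, 9 were higher and 2 lower in podocytes with Adriamycin and only Rad21 was called in MEFs with Adriamycin (-0.29 ± 0.12) in the authors' deposited table. Of 10 genes that load or license the centromere, 6 were higher and 1 lower in podocytes with Adriamycin, and only Cenpw was called in MEFs with Adriamycin (-0.95 ± 0.35) in the authors' deposited table. Of the other checkpoint and attachment factors, 8 were higher and 2 lower in podocytes with Adriamycin, and 3 fell in MEFs with Adriamycin: Plk1 (-1.01 ± 0.40), Kntc1 (-0.98 ± 0.40) and Gsg2 (-0.99 ± 0.33) in the authors' deposited table. Podocyte tables list called genes only. Anapc11, Rad21, Cenpw, Kntc1 and Gsg2 were chosen after their values were seen.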
